A study of Mus musculus with 4 samples.

Results

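Transcript levels in untreated keratinocytes that carry the label HMGB1 knockout (KO) were compared with those in untreated wild-type (WT) keratinocytes, gene by gene. A feature here is a transcript cluster, the probe set that Clariom S Mouse arrays assign to a gene. Clusters were kept where the highest of 4 arrays reached 5.33 on the deposited log2 scale, the median of all table values, which left 11456 of 22206 clusters. The 3 clusters just outside that threshold differed by 0.15, -0.64 and -0.38 between KO and WT, and the 3 just inside by 0.74, 0.20 and 0.63.

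Primary keratinocytes, the epithelial cells of the epidermis, came from male mice that were either WT or HMGB1 KO, and the design text calls the mutant mice K5-HMGB1. How that allele was made, which cells lose the gene, the age of the mice and the number of animals behind a culture are not given in the sources used here. Cultures stood in EpiLife medium without treatment, or with 100 ng/ml recombinant interleukin-4 (IL-4) for 12 h, and each of the 4 combinations of genotype and treatment was hybridised to 1 array. There is therefore no replicate error for any value below, no p-value is given, and a difference between genotypes cannot be told apart from one between the cultures or animals. The IL-4 pair of arrays, KO against WT, is the only other pair with the same genotype contrast. It shares no array with the untreated pair, although the dishes of a genotype may share animals.

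HMGB1 is an abundant nuclear protein whose HMG boxes bend DNA and loosen nucleosomes. Outside the cell it acts as an alarmin, a signal of damage that is read by receptors such as TLR2, TLR4 and RAGE. The keratinocyte makes the outer barrier of the skin by moving from a basal, integrin-anchored state to a cornified state of cross-linked protein and lipid. ATF4, which recurs below, is the transcription factor of the integrated stress response: when kinases such as GCN2 and PERK phosphorylate eIF2alpha, ATF4 mRNA is translated more, and ATF4 then switches on genes of amino acid synthesis, transport and stress signalling.

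The targeted gene came first. The Hmgb1 cluster (chromosome 5, 149046702 to 149053057 on GRCm38) read 14.71 in untreated WT, 7.97 in untreated KO, 14.17 in WT with IL-4 and 7.60 in KO with IL-4. Both KO arrays were far below both WT arrays, as the labels say they should be. The untreated difference was -6.74 log2, the largest of all kept clusters in either direction. Both KO values lie under 9.21, the value that 95% of the readings of the 5222 negative control rows did not reach, so the fold is given as at least 45.2-fold lower in KO. The next largest fall belonged to a cluster with 2 predicted-gene symbols, Gm2710 and Gm10075, a feature picked out after its values were seen. It read 12.66 in untreated WT, 6.25 in untreated KO, 12.35 in WT with IL-4 and 7.41 in KO with IL-4, and so fell with Hmgb1 under both treatments. Whether its probes match Hmgb1 transcripts was not tested.

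Only 3 of 13 listed HMG-box, nucleosome-binding and HMGB1-receptor genes could be named. Hmgn5, a nucleosome-binding protein that loosens compact chromatin, read 6.68 in untreated WT, 8.47 in untreated KO, 7.73 in WT with IL-4 and 7.20 in KO with IL-4. Its rise of 1.79 log2 was not seen with IL-4, where KO lay 0.53 below WT, and all 4 values are under 9.21. Tlr2, a receptor that recognises HMGB1 among other ligands, differed by -0.19.

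In all, 511 of the 11456 clusters (4.46%) differed at least 2-fold between untreated KO and WT. Of these, 154 (1.34%) were higher in KO and 357 (3.12%) were lower. The asymmetry grew with size: 23 clusters were at least 3-fold higher and 92 at least 3-fold lower, 4 and 35 passed 4-fold, and 0 and 6 passed 8-fold. The median difference was -0.01 log2 and 49.5% of clusters lay higher in KO, as RMA, which makes the arrays' distributions alike, would leave them whether or not total RNA differed. WT and KO values correlated at a Pearson r of 0.986 across clusters, and the robust SD of the difference was 0.39 log2. Below, rose, fell, higher and lower counts use the 2-fold threshold unless a sign alone is stated.

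**Figure D1:**
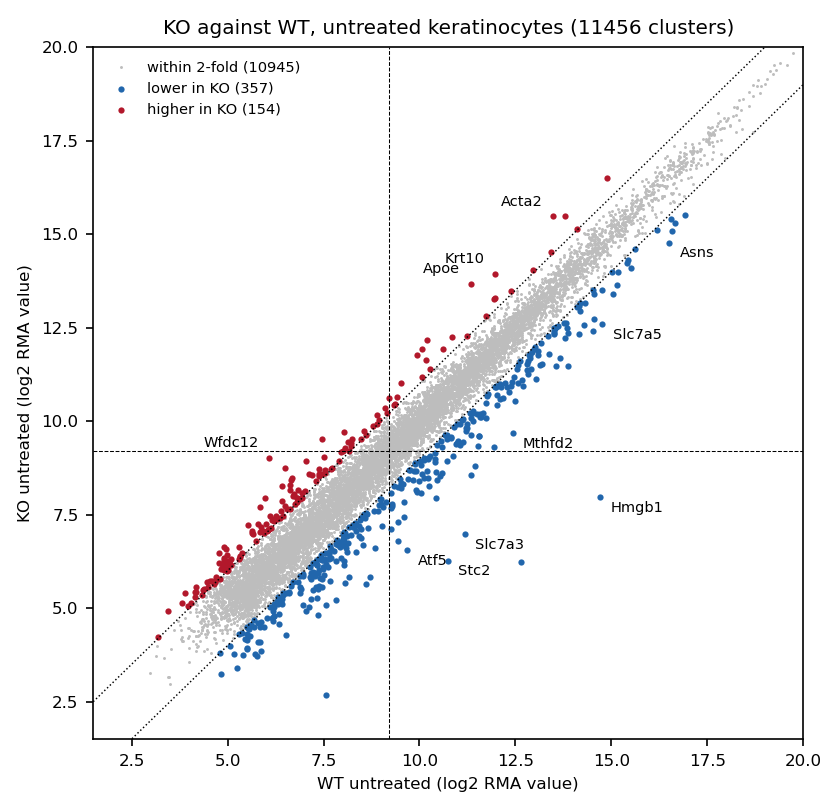
Log2 RMA value in untreated WT (x axis) against untreated KO (y axis), 1 point per kept cluster, 1 array each. Dotted lines mark 2-fold, dashed lines the 95th percentile of negative controls at 9.21; 357 clusters lie lower in KO and 154 higher, and Hmgb1 stands far from all other named points.

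Many of these differences sit at low signal. Of the 511 clusters, 286 (56.0%) had both untreated values under 9.21, which will be called dim, against 51.2% of all kept clusters. A further 152 had both values at or above it. The share past 2-fold was 6.05% for clusters with a mean below 6, 3.34% between 10 and 12, 4.40% between 12 and 14, and 2.52% above 14. Negative control rows, which match no transcript, differed at least 2-fold in 23.1% of cases without any level filter, so a dim difference is a size on 2 arrays and no more. A value above 16 occurred in 7 of the 511 clusters, beyond what a 16-bit scanner count would give, and the size of those differences is uncertain.

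Naming also selects. Gene symbols came only from a pair of tables that list clusters changed by IL-4 in WT, or between WT and KO under IL-4, so 351 of the 511 clusters had 1 symbol, 10 had several and 150 had none. The unnamed clusters, 59 higher and 91 lower, ranged from -2.49 to 1.85. The first table shares the untreated WT array with the comparison made here, and that ties the readouts together. When 1076 clusters whose WT level dropped 2-fold with IL-4 were counted, 19.5% were 2-fold lower and 1.39% higher in untreated KO. Among 1250 whose WT level rose, 5.36% were higher and 2.24% lower, and among the 9130 others 0.789% and 1.30%. By sign alone, 21.0% of the 1076, 72.8% of the 1250 and 49.7% of the 9130 lay above 0. Over all 2568 kept clusters with 1 symbol, 351 (13.7%) passed, 257 of them lower (10%) and 94 higher (3.66%). Counts for gene groups are read against these shares, and nothing is taken as particular to a group from them.

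Most of the ATF4-linked genes that could be named were lower in untreated KO. Of 23 named clusters on 3 lists of ATF4-linked genes, 17 fell at least 2-fold, none rose, and the median difference was -1.81 log2 against -0.45 for the 1076 clusters that IL-4 lowered in WT. The lists had 21 named members lowered and 2 raised by IL-4 in WT, so the 19.5% just given is the nearest background. All 23 were named through the table that shares the untreated WT array. The lists hold 14, 16 and 19 genes, and their unnamed members could not be read. Atf4 itself read 15.40 in untreated WT, 14.23 in untreated KO, 14.29 in WT with IL-4 and 14.25 in KO with IL-4. The untreated WT culture thus stood 1.17 log2 above untreated KO, and the other 3 arrays read nearly alike.

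Of 5 named transcription factors and kinases of the pathway, 3 fell: Atf4, Trib3 and Atf5. Trib3, a pseudokinase that dampens ATF4 signalling, read 11.45, 8.81, 9.99 and 10.52 in untreated WT, untreated KO, WT with IL-4 and KO with IL-4, a fall of 2.64 log2 and at least 4.71-fold. Atf5, a related bZIP factor that is itself controlled by translation under stress, read 9.69, 6.55, 7.38 and 7.29 in the same order, and its fall is at least 1.39-fold with the KO value under the control percentile. Cebpb, a C/EBP factor that pairs with ATF4, differed by -0.77, and Eif2ak4, which encodes the amino acid sensing kinase GCN2, by 0.06. Neither reached 2-fold. Eif4ebp1, a repressor of cap-dependent translation and an ATF4 target that was chosen after its values were seen, read 12.88 in untreated WT and 11.69 in untreated KO, then 11.59 and 11.88 with IL-4.

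Enzymes of amino acid synthesis and the folate cycle made up most of the fall. All 13 named clusters of a 16-gene list lay below 0, 12 of them past 2-fold, with a median of -1.85. Asns, asparagine synthetase, read 16.51 in untreated WT, 14.76 in untreated KO, 15.20 in WT with IL-4 and 15.16 in KO with IL-4. The serine pathway was represented by Psat1, the aminotransferase, which read 14.28, 12.58, 11.81 and 11.24 in that order of arrays, and by Psph, the phosphatase of the last step, which read 11.06 in untreated WT, 9.36 in untreated KO and 9.13 in WT with IL-4. Here untreated KO was not the lowest culture, since WT with IL-4 lay below it for both genes.

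Mitochondrial folate enzymes fell as well. Mthfd2, the dehydrogenase that embryonic and dividing cells use, read 12.43, 9.68, 10.94 and 10.98 (untreated WT, untreated KO, WT with IL-4, KO with IL-4), a fall of 2.74 log2. Shmt2, which moves a carbon from serine to folate, read 14.17, 12.32, 12.75 and 12.03 in that order. Aldh1l2, a mitochondrial dehydrogenase of formylated folate, fell by 2.61 between dim values of 7.82 and 5.21. On the proline route, Aldh18a1, which makes the first intermediate from glutamate, read 11.94, 9.30, 10.58 and 10.38, while Pycr1, which makes proline, fell by 2.06 between dim values of 7.34 and 5.28.

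The remaining enzymes were Cth, Pck2, Chac1 and Gpt2. Cth, which makes cysteine from cystathionine, read 10.44, 8.64, 9.13 and 9.48 in the order above. Pck2, the mitochondrial PEP carboxykinase, read 9.45, 6.80, 7.60 and 7.90, and Chac1, which degrades glutathione, read 9.61, 7.43, 6.86 and 7.34. For Cth, Pck2 and Chac1 the KO value is under 9.21, and the falls are at least 2.35-fold, 1.18-fold and 1.31-fold. Gpt2, an alanine aminotransferase, fell from 10.01 to 8.94, at least 1.74-fold. Got1, the cytosolic aspartate aminotransferase, was the 1 named member short of 2-fold, at -0.48.

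Among secreted and stress-linked ATF4 targets, 5 of 19 could be named and 2 fell. Stc2, a secreted glycoprotein induced by stress, read 10.74 in untreated WT, 6.27 in untreated KO, 8.52 in WT with IL-4 and 8.43 in KO with IL-4, the third largest fall with a single symbol and at least 2.89-fold. Adm2, a calcitonin-family peptide, fell by 2.97 between dim values. Vldlr, Cdsn and Vegfa differed by -0.76, -0.61 and -0.30. Cdsn encodes corneodesmosin, an adhesion protein of the cornified layer, and is not a known stress gene, so its place on that list is an error that leaves the count of falls as it is. No gene of a 16-member list of endoplasmic reticulum chaperones was named, so the other arm of the stress response could not be read here.

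Amino acid transporters split. Of 29 listed, 11 were named, 4 fell and 2 rose. Slc7a3, a carrier of arginine and lysine, read 11.18 in untreated WT, 6.98 in untreated KO, 9.36 in WT with IL-4 and 8.15 in KO with IL-4, and was at least 3.92-fold lower. Slc7a5, the large neutral amino acid carrier LAT1, read 14.76, 12.59, 13.24 and 13.28 in that order, and Slc6a9, a glycine carrier, 12.33, 10.77, 10.70 and 11.41. Slc7a11, the cystine carrier, read 12.39, 10.93, 12.26 and 13.83, so KO was lowest without IL-4 and highest with it. The members that rose were Slc7a8 (LAT2), at 7.46, 9.52, 11.46 and 12.95 (at least 1.23-fold untreated), and Slc43a2 (LAT4), dim without IL-4 at 6.50 and 8.74. Both read higher with IL-4 than without it in each genotype.

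With IL-4, the same genes lay close together in KO and WT. None of the 17 that fell was 2-fold apart between the IL-4 cultures, where the differences ran from -0.92 to 0.87, and the median over the 23 was -0.04. The difference between the untreated and the IL-4 pair was not tested. With 1 array a group, a high reading of the untreated WT culture and a low reading of the untreated KO culture cannot be told apart.

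**Figure D2:**
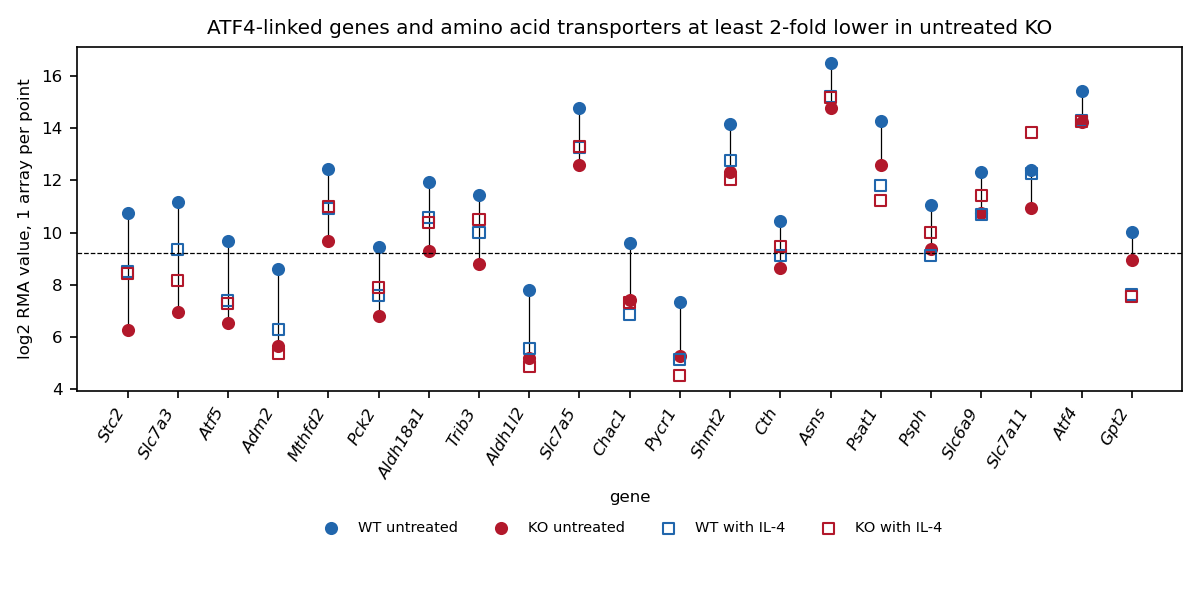
Log2 RMA value (y axis) of the ATF4-linked genes and amino acid transporters at least 2-fold lower in untreated KO (x axis, by size of fall), 1 point per array. Filled points are untreated and open squares IL-4 cultures, with the control percentile of 9.21 dashed; untreated WT is on top in every gene but Slc7a11, where KO with IL-4 is.

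ATF4 binds with C/EBP partners to a composite element, and its core TGATGNAA (N is any base) was searched on both strands of RefSeq promoters, which run from 250 bases before to 50 bases after the start of a gene on GRCm38.p6. The core was in 6 of the 17 promoters available for the ATF4-linked genes and transporters that fell (35.3%), and in 2 of 12 for those on the same lists that did not fall (16.7%; Got1 and Vldlr). It was in 3.97% of all 32851 promoters, in 3.43% of the 1954 promoters of named clusters, in 7.07% of 198 that fell and in 2.99% of 67 that rose. Most of the listed genes were chosen for a link to ATF4, so a share above that of all promoters may follow from that choice. The difference between listed genes that fell and those that did not was not tested. The 6 that fell and held the core were Asns, Chac1, Pck2, Pycr1, Slc7a11 and Trib3. Of these, 4 promoters are shown, each on the strand of its gene and with the core in capitals, because they hold it in both orientations and, in Slc7a11, at 2 places.
Asns (chr6:7693160-7693459, minus strand): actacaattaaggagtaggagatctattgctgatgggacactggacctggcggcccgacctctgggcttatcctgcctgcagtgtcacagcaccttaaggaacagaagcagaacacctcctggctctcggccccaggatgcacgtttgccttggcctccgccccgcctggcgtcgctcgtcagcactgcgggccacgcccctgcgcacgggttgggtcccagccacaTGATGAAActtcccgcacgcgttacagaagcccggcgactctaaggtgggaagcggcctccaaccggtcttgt
Chac1 (chr2:119350992-119351291, plus strand): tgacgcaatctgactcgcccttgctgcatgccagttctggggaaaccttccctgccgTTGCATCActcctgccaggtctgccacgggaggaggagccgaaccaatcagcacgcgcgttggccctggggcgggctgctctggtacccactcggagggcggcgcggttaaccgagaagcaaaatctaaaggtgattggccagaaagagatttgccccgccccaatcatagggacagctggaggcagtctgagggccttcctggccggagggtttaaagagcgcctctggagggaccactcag
Pycr1 (chr11:120643699-120643998, minus strand): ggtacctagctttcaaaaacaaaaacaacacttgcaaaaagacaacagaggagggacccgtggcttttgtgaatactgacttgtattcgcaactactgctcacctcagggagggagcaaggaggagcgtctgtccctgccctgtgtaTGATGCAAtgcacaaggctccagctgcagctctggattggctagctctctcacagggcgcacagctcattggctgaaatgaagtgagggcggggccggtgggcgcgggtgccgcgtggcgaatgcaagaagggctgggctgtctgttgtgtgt
Slc7a11 (chr3:50443564-50443863, minus strand): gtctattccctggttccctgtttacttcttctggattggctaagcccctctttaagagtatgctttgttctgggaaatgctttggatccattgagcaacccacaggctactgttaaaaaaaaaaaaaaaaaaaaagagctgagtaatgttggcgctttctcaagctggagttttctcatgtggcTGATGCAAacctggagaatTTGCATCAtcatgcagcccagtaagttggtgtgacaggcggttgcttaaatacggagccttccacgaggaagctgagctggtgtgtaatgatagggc
The core begins 23 bases before the start in Asns, 193 before it in Chac1 on the other strand, and 103 before it in Pycr1. In Slc7a11 it begins 66 bases before the start and, on the other strand, 47 before it. Pck2 has it 103 bases before the start and Trib3 15 after. A match describes the letters of this window and is not a measured binding site.

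Genes of the cornified envelope, the cross-linked protein shell of the outermost keratinocytes, leaned lower in untreated KO. Of 52 named clusters, 15 fell, none rose, 48 lay below 0 and the median was -0.71. Of these 52, IL-4 lowered 51 in WT, so the share of 19.5% lower for such clusters, whose median was -0.45, is the background. By sign, 21.0% of such clusters lay above 0. In RNA of whole cultures, fewer differentiated cells and less RNA per cell cannot be told apart. Lce3 genes, late cornified envelope proteins linked to barrier repair, fell in 6 of 6 cases with a median of -1.45. Lce3e read 10.45 in untreated WT, 8.43 in untreated KO, 8.55 in WT with IL-4 and 8.11 in KO with IL-4, at least 2.35-fold lower in untreated KO. Lce3c and Lce3d were near the top of the scale, at 16.91 against 15.52 and 16.58 against 15.09 without IL-4. Fewer of the Lce1 group passed: 3 of 14, although all 14 lay below 0 (median -0.77). Of 7 Sprr2 genes, small proline-rich cross-linker proteins, 3 fell (median -0.95). Lce and Sprr2 genes are near-identical copies whose probes may share signal, so these counts are not independent.

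The lower values ran along the epidermal differentiation complex, the gene cluster that holds these families. Between its first and last structural gene (chromosome 3, 92080271 to 93471980), 19 of 44 named clusters fell, none rose and 43 lay below 0, with a median of -0.92. Ivl, involucrin, an early envelope protein, was the exception at 0.14. The 44 clusters are mostly members of the envelope list already counted, so the background is again the class that IL-4 lowered in WT. There, 19.5% fell in untreated KO, 21.0% lay above 0 and the median was -0.45. Lor, loricrin, the main envelope protein, read 10.19 in untreated WT, 8.66 in untreated KO, 4.71 in WT with IL-4 and 5.76 in KO with IL-4, at least 1.97-fold lower in untreated KO. Flg2, a filaggrin relative, read 10.57, 8.60, 4.27 and 4.66 in that order (at least 2.57-fold lower untreated), and 2310050C09Rik, an uncharacterised gene, read 13.88, 11.47, 6.93 and 6.96. Between the IL-4 cultures the list's median KO minus WT difference was 0.05. The transglutaminases that cross-link the envelope were under 2-fold, with Tgm1 at -0.91 and Tgm3 at 0.05.

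Keratins did not follow the envelope genes. Of 9 named, 3 rose and 1 fell. Krt10, a suprabasal keratin, read 11.98 in untreated WT, 13.94 in untreated KO, 6.80 in WT with IL-4 and 8.70 in KO with IL-4, higher in KO under both treatments. Krt1, its usual partner, read 16.62, 17.35, 7.49 and 7.99, a difference under 2-fold. Krt8 and Krt18, partners in simple epithelia, read 8.03 and 5.53 in untreated WT and 9.71 and 7.23 in untreated KO, at least 1.41-fold higher for Krt8 and dim for Krt18. With IL-4 they went from 9.80 and 9.26 in WT to 14.76 and 13.63 in KO, differences of 4.95 and 4.38. Krt78 fell by 1.94, from 11.54 to 9.60. Krt16, a keratin of activated epidermis, differed by -0.06.

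Proteases and their inhibitors, which control the shedding of the cornified layer, fell in 11 of 24 named clusters and rose in 2 (median -0.65). IL-4 lowered 22 of the 24 in WT. In that class 19.5% fell in untreated KO, only 21.0% lay above 0 and the median was -0.45. The kallikreins, serine proteases encoded side by side on chromosome 7 (43680880 to 43851181), lay below 0 in all 7 cases and fell in 4. Klk5, the activator of other kallikreins, read 13.55 in untreated WT, 11.48 in untreated KO, 8.99 in WT with IL-4 and 7.25 in KO with IL-4. Klk10 read 12.79, 11.53, 12.84 and 11.58, a difference of -1.26 under both treatments. Klk13, dim, and Klk11 fell by 1.61 and 1.06, and Klk7 read 18.26 against 17.73, a difference under 2-fold.

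Of 5 named cysteine protease inhibitors of the stefin family, 3 fell and the others differed by -0.61 and -0.21. Stfa3 read 12.50, 10.54, 7.02 and 5.33 in the same order of arrays, and Stfa1 and Csta1 fell by 1.23 and 1.10. Of the others, Ctsc, a lysosomal activator of serine proteases, fell by 1.58, Prss8, a channel-activating protease of the barrier, by 1.13, Spink12 by 1.79 and Serpinb3a by 1.68, the last 2 from dim values. Wfdc12, a small secreted inhibitor, had the largest rise of all kept clusters: it read 6.08 in untreated WT, 9.02 in untreated KO, 4.71 in WT with IL-4 and 5.34 in KO with IL-4, dim throughout.

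Barrier lipid genes mostly stayed within 2-fold. Of 31 named, 3 fell and 1 rose (median -0.34). Smpd3, a sphingomyelinase, read 13.65 in untreated WT, 11.68 in untreated KO, 7.74 in WT with IL-4 and 7.81 in KO with IL-4. Sult2b1, which makes cholesterol sulfate, fell from 15.50 to 14.10, and Sdr9c7, a dehydrogenase needed for the lipid envelope, by 1.15. Apoe, a lipid carrier protein, read 11.33, 13.67, 10.28 and 11.16, the largest rise of a named cluster that was above 9.21 in both untreated arrays. In the junction list 2 of 18 named clusters fell, both connexins: Gjb6 from 10.72 to 8.93 (at least 2.85-fold) and Gjb2 from 12.28 to 10.91.

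**Figure D3:**
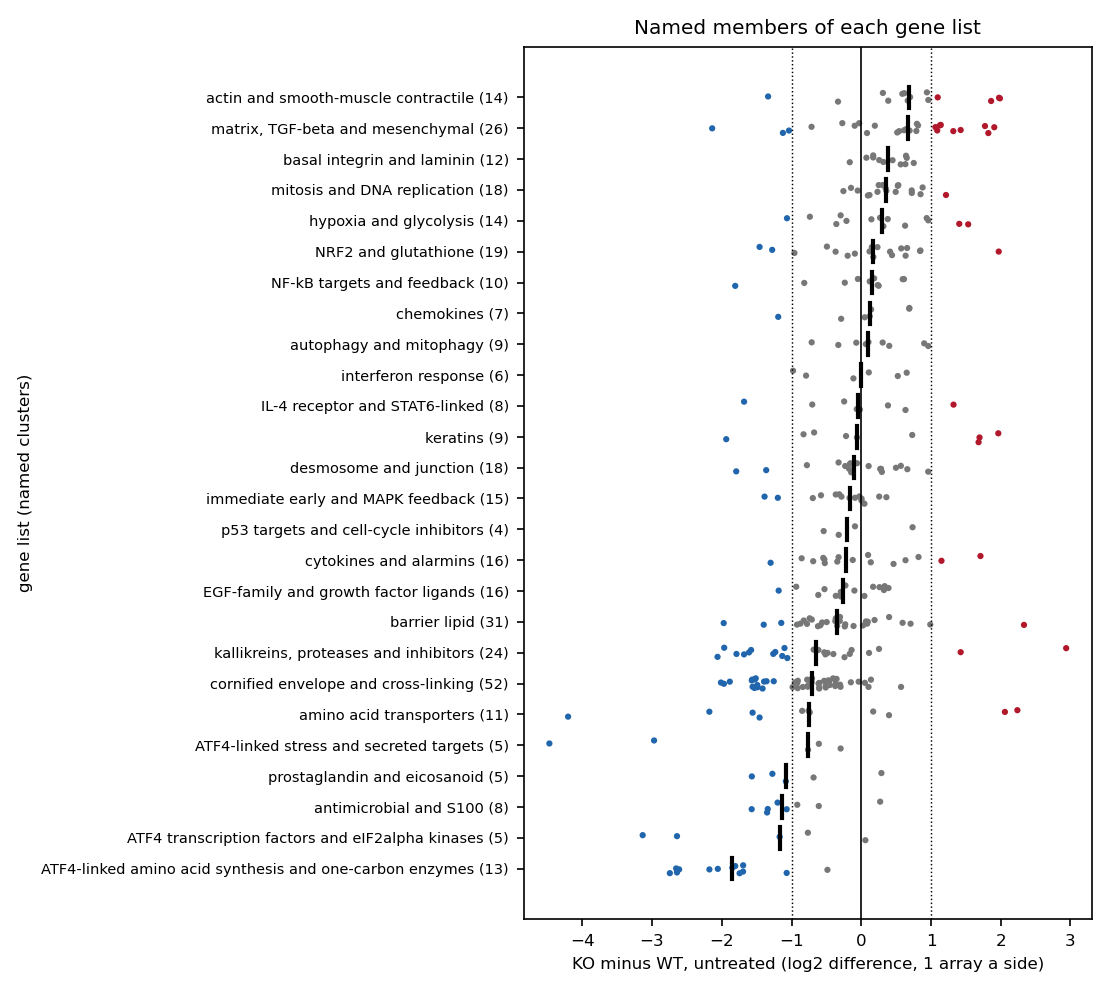
KO minus WT difference in untreated cultures (x axis, log2, 1 array a side) for each named cluster of a gene list (y axis, with the number of named clusters), blue at least 2-fold lower, red at least 2-fold higher. Black bars are list medians, from -1.85 for ATF4-linked amino acid synthesis to 0.68 for actin and contractile genes, and dotted lines mark 2-fold.

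Antimicrobial genes fell in 5 of 8 named cases, with a median of -1.13. S100a8 and S100a9, the subunits of calprotectin, read 14.15 and 13.83 in untreated WT and 13.08 and 12.48 in untreated KO. Defb3, Defb4 and Defb14, all defensins, fell by 1.57, 1.34 and 1.20, the first and second of these between dim values. Of the 8 named members, IL-4 lowered 7 in WT, and 4 are dim. Clusters that IL-4 lowered in WT fell in 19.5% of cases, and their median was -0.45. Enzymes of prostaglandin and eicosanoid synthesis fell in 3 of 5 named cases (median -1.08), against 10% of all kept clusters with 1 symbol. IL-4 lowered 3 of these 5 in WT, and 4 are listed by the table of the IL-4 genotype comparison. Ptgs2, the inducible cyclooxygenase, read 13.79 in untreated WT, 12.22 in untreated KO, 14.09 in WT with IL-4 and 12.37 in KO with IL-4, lower in KO under both treatments. The phospholipases Pla2g4e and Pla2g2f, which release fatty acids, fell by 1.27 and 1.08. Hpgds, which makes prostaglandin D, and Ptgr1, a prostaglandin reductase, both outside the list and chosen after their values were seen, fell by 1.06 and 1.30.

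Cytokine genes went both ways. Of 16 named, Csf1 and Lif rose and Il1f6 fell (median -0.22). Csf1, the macrophage growth factor, read 13.78 in untreated WT, 15.49 in untreated KO, 17.37 in WT with IL-4 and 17.73 in KO with IL-4. Lif, an IL-6 family cytokine, rose by 1.15 from dim values, and Il1f6, which encodes IL-36 alpha, fell from 9.51 to 8.21, at least 1.23-fold. Il33, an epithelial alarmin, and Il1a differed by -0.32 and -0.52. Of 7 named chemokines, Ccl20, which draws CCR6-bearing cells, fell by 1.19 between dim values. Tnfaip2, the 1 member of 10 named NF-kB targets past 2-fold, read 9.92, 8.12, 12.92 and 11.36 in the order used above, at least 1.64-fold lower in untreated KO. No interferon-response gene passed in either direction (6 named, median -0.00). Casp1, the inflammasome protease, chosen after its values were seen, read 8.04, 6.14, 7.28 and 4.75, dim and lower in KO under both treatments.

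Matrix, TGF-beta-linked and mesenchymal genes leaned the other way. Of 26 named clusters, 9 rose, 3 fell and 19 lay above 0, with a median of 0.67. Of the 26, IL-4 raised 20 in WT, a class in which 5.36% rose in untreated KO and whose median was 0.27. In that class 72.8% lay above 0, so the count above 0 is near its background. Fn1, fibronectin, read 11.96 in untreated WT, 13.28 in untreated KO, 15.99 in WT with IL-4 and 16.92 in KO with IL-4. Lox, which cross-links collagen, read 7.04, 8.95, 12.14 and 15.77, dim without IL-4 and bright with it. Angptl7, a secreted matrix protein, read 9.93, 11.76, 7.76 and 12.32. With IL-4 the difference in Lox and Angptl7 was 3.62 and 4.56.

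Other members of that list also rose. Vim, the intermediate filament of mesenchymal cells, read 10.28 in untreated WT, 11.41 in untreated KO, 9.54 in WT with IL-4 and 11.52 in KO with IL-4. Tnc, tenascin C, rose from 13.42 to 14.51, Ctgf, a matricellular target of TGF-beta and YAP, from 11.74 to 12.81, and Spp1, osteopontin, from dim values of 6.64 to 8.42. Mmp2, a gelatinase, rose by 1.14 from dim values. Among the falls, Timp3, a metalloprotease inhibitor, read 9.44, 7.31, 7.21 and 5.65, at least 1.17-fold lower. Inhba, the activin A subunit, fell from 13.02 to 11.98, and Mmp13, a collagenase, by 1.12 between dim values.

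Actin and contractile genes rose in 4 of 14 named cases and fell in 1, with 12 above 0 and a median of 0.68. IL-4 raised 12 of the 14 in WT. In that class 5.36% rose in untreated KO, 72.8% lay above 0 and the median was 0.27. Over the 2 members named by the IL-4 genotype table alone, the median was -0.83. Acta2, smooth-muscle alpha-actin, read 13.48 in untreated WT, 15.47 in untreated KO, 14.51 in WT with IL-4 and 15.49 in KO with IL-4. Tagln, which binds actin filaments, read 10.20, 12.17, 13.01 and 13.29 in that order. In Tagln untreated WT alone was low, and in Acta2 both KO arrays were higher than both WT arrays. Vcl, vinculin, rose from 12.37 to 13.47 and Tns3, a tensin of focal adhesions, from 6.41 to 8.28, dim. Myl9, a myosin light chain, went against them with a fall of 1.34 between dim values.

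**Figure D4:**
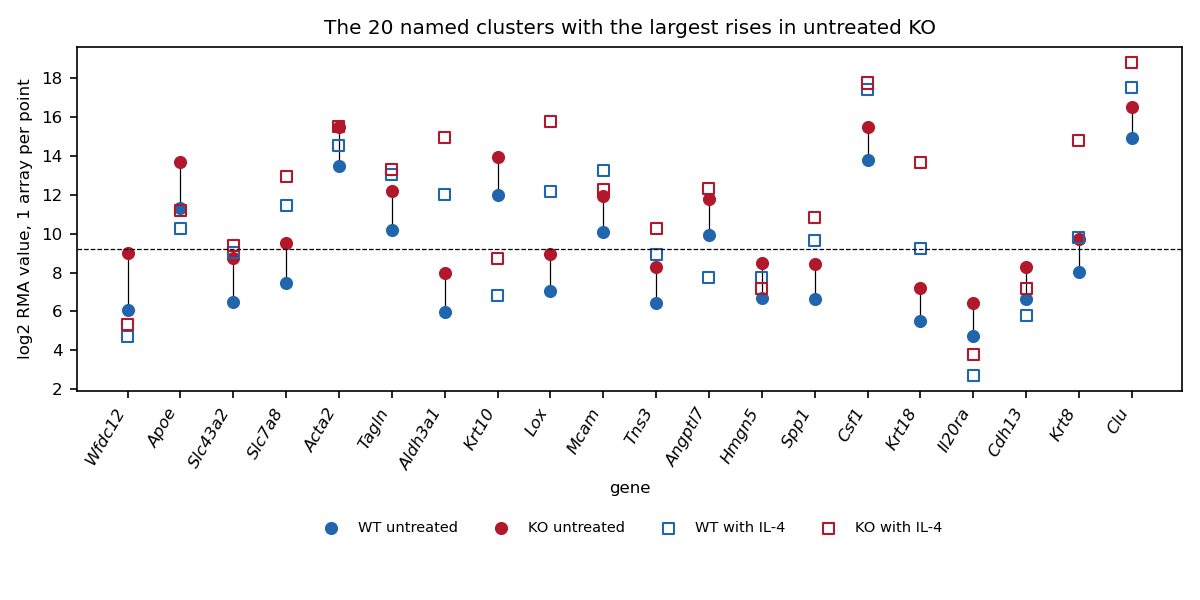
Log2 RMA value (y axis) of the 20 named clusters with the largest rises in untreated KO (x axis, by size), 1 point per array, filled for untreated and open for IL-4 cultures. The dashed line is the control percentile of 9.21; Apoe, Acta2, Tagln, Krt10, Mcam, Angptl7, Csf1 and Clu lie above it in both untreated arrays, and the other 12 have at least 1 untreated value below it.

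None of 12 named integrin and laminin genes of the basal layer passed 2-fold, with 11 above 0 and a median of 0.38. IL-4 raised all 12 in WT, a class in which 72.8% lay above 0 and whose median was 0.27. Cdk1, the mitotic kinase, was the 1 of 18 named mitosis and replication genes to pass, reading 7.95 in untreated WT, 9.16 in untreated KO, 8.47 in WT with IL-4 and 7.30 in KO with IL-4. Of those 18, 15 lay above 0 (median 0.35), whereas with IL-4 the median was -1.02, and 10 were named only because they differed between genotypes under IL-4. Both untreated values of Cdk1 are dim. In the hypoxia list P4ha2, a collagen hydroxylase, rose by 1.53 between dim values and Egln3, an oxygen sensor, by 1.41, while Adm, adrenomedullin, fell by 1.06, out of 14 named.

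In the NRF2 and glutathione list 1 of 19 named clusters rose and 2 fell (median 0.17). Aldh3a1, an aldehyde dehydrogenase, read 5.99, 7.96, 12.03 and 14.91 in untreated WT, untreated KO, WT with IL-4 and KO with IL-4, dim without IL-4. Gsta3, a glutathione transferase, fell by 1.28 between dim values, and Slc7a11 has been described. Nqo1, a standard NRF2 target, differed by 0.15 without IL-4 and by 1.32 with it, and the list median with IL-4 was also 1.32. That median follows in part from the naming. Of the 19, 12 are listed by the table of the IL-4 genotype comparison, 5 of them by it alone. None of 9 autophagy genes and none of 4 p53 targets passed, and the 1 named heat shock gene, Hsph1, differed by 0.52. Immediate early genes had 2 falls in 15 named clusters, Ier5 at -1.39 and Fos at least 1.16-fold lower. Among IL-4 receptor and STAT6-linked genes Socs2 rose by 1.32 and Serpinb3a fell, of 8 named, and among growth factor ligands Nrg4 fell by 1.18, of 16, all 3 of these dim.

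The largest falls outside these groups were mixed. Dhrs9, a retinol dehydrogenase, read 11.33 in untreated WT, 8.57 in untreated KO, 10.32 in WT with IL-4 and 9.32 in KO with IL-4, at least 4.34-fold lower in untreated KO. Penk, the enkephalin precursor, fell by 2.88 and Gm11096 by 4.88, both between dim values and both lower with IL-4 in WT. Tmem86a fell from 11.52 to 9.34. Homer2, a scaffold protein, fell by 2.24 and Plcxd1 by 2.26, both dim. Of the 20 largest named falls, 8 were on an ATF4 list, but the lists were chosen with earlier results of these data known. IL-4 lowered 16 of the 20 in WT, and clusters of that class lean lower in untreated KO. Among the largest rises, Clu, the chaperone clusterin, read 14.89, 16.49, 17.51 and 18.77, above 16 in 3 arrays. Mcam, an adhesion molecule, read 10.06, 11.93, 13.25 and 12.28, and Cdh13 and Il20ra rose by 1.69 and 1.70 from dim values.

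The IL-4 pair gives each difference a second reading. There, 627 of the same clusters (5.47%) differed 2-fold, 185 higher in KO (1.61%) and 442 lower (3.86%). Of the 154 clusters that rose without IL-4, 108 (70.1%) were also above 0 with it, against 47.7% of all clusters, and 28 (18.2%) passed 2-fold again. Of the 357 that fell, 257 (72.0%) were below 0, against 52.3%, and 79 (22.1%) passed again. In all, 107 clusters (0.934%) passed the same way in both pairs and 11 (0.096%) in opposite ways. The median with IL-4 was 0.38 for those that rose untreated and -0.34 for those that fell. Because the clusters were chosen on the untreated arrays, a smaller second reading follows from the choice. Of the 107, 28 were higher in both (0.244%) and 79 lower in both (0.69%). Those with 1 symbol numbered 98, all of them listed by the table of the IL-4 genotype comparison.

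Besides Hmgb1, the named clusters with the largest difference in both pairs included several receptors. Htr1b, a serotonin receptor, read 7.35 in untreated WT, 4.82 in untreated KO, 7.31 in WT with IL-4 and 4.47 in KO with IL-4. Olr1, a scavenger receptor for oxidised lipoprotein, read 8.16, 5.83, 9.44 and 5.85. In both genes the KO arrays were low whatever the treatment, and all of these values but 1 are under 9.21. Lrrn4cl, Gria3 (a glutamate receptor subunit) and Gfra2 (a receptor for neurturin) differed by -2.39, -2.05 and -2.11 untreated, all dim, and by -2.32, -3.07 and -1.96 with IL-4. Slc5a1, the sodium-glucose carrier, read 10.24, 8.27, 6.06 and 3.85, at least 2.04-fold lower in untreated KO. Ptprz1, a receptor phosphatase, read 10.23, 8.47, 8.70 and 6.92, at least 2.02-fold lower in untreated KO. It was lower in KO under both treatments and lower with IL-4 in both genotypes. Higher in both were Aldh3a1, Lox, Krt10 and Angptl7, and lower in both were also Casp1, Spink12 and Klk5.

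**Figure D5:**
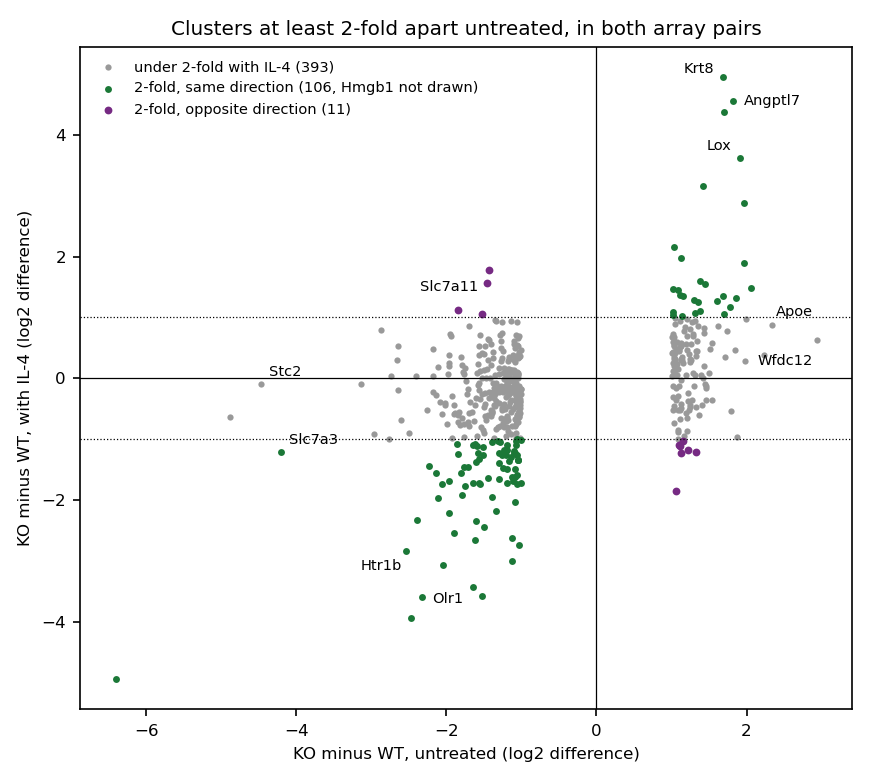
KO minus WT difference (log2) without IL-4 (x axis) and with IL-4 (y axis), 1 point per cluster at least 2-fold apart without IL-4, from array pairs that share no array. Dotted lines mark 2-fold with IL-4; 107 clusters pass the same way (Hmgb1, off the lower left, is not drawn), 11 pass the opposite way, and Stc2 sits near 0 on the y axis.

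Clusters near the targeted gene were close to 0 at the median. Within 10 Mb on each side of Hmgb1, 13 clusters were named, of which 1 fell (Nudt1, at -1.16 and dim) and none rose, with a median of 0.02. By chromosome, the share of kept clusters past 2-fold ran from 2.64% on chromosome 17 to 6.56% on chromosome 3, which carries the epidermal differentiation complex. For 8 symbols with more than 1 cluster, the differences of the pair lay 0.02 to 0.63 apart, with a median gap of 0.21.

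Markers of the labelled cells and of others were read on the same arrays. Of 16 keratinocyte markers 5 were named (Krt1, Krt10, Epcam, Itgb4 and Lamb3), and all were well above the control percentile in both untreated cultures, Epcam at 12.55 and 13.23, Itgb4 at 14.96 and 15.52. Krt5 and Krt14 could not be named. Fibroblast markers, which bear on the matrix genes, were named in 3 of 18 cases, and Vim, Sparc and Mmp2 were all above 0. Their summed linear level, on a log2 scale, was 11.83 in untreated WT and 12.75 in untreated KO, and 10.98 and 12.78 with IL-4. All 3 were named only because they differed between genotypes under IL-4, so the IL-4 sums are not an independent second reading. The defining collagens Col1a1, Col1a2 and Col3a1 could not be named, and the part of fibroblast RNA in the matrix result was not tested. Smooth-muscle and pericyte markers, 4 of 9 named, summed to 10.37 and 12.04 in untreated WT and KO. Mcam, at 10.06 and 11.93, made up most of that, and the part of these markers in the actin result was not tested either.

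The 4 named melanocyte markers summed to 13.12 in untreated WT and 13.13 in untreated KO, with Tyrp1 at 12.55 and 12.61. Single markers differed by -0.77 to 0.08. With IL-4 the sums were 12.08 in WT and 13.65 in KO, but 3 of the 4 are listed by the table of that comparison. The 1 named immune marker of 18, Cd68, fell from 13.18 to 11.53. It is a lysosomal protein of macrophages that other cells also make, and Ptprc, the pan-leukocyte gene, could not be named. Flt1, the 1 named endothelial marker, was dim.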

How the data were processed

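RNA from 4 keratinocyte cultures was measured on Clariom S Mouse arrays, 1 array a group, and samples were grouped by the genotype and treatment labels. The log2 values that the authors deposited cover 22206 clusters plus 6640 control rows and came from RMA in Affymetrix Expression Console 1.4, per the submitters' processing notes. The design text names another program, the Exon Array Computational Tool. RMA makes the arrays' distributions alike, so a change in total RNA is removed; cluster medians were 5.10 to 5.15, and 233 to 245 clusters per array exceed 16. The authors also deposited 2 tables of log2 values with a signed fold change (a score, negative where the second sample is higher), which were used only for gene symbols, per the file headers in annotation na36 on mm10. Their columns matched the arrays to within 0.014 and 0.068. They gave 1 symbol to 3059 clusters, and of the 2568 kept here 2528 matched RefSeq on GRCm38.p6, the source of coordinates and promoters.

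Differences are KO minus WT, with 1 log2 unit as the threshold. No test was run, as there is 1 array a group. Gene lists, members and the naming rule were chosen with earlier results of these data known. Named were Hmgb1, the 20 largest falls and rises, list members past 2-fold (or the largest up to 4), the 15 largest differences alike in both pairs, all opposite ones, and markers; further genes, list members short of 2-fold among them, were named after their values were seen. The values of 1 list member are not reported here. Where 1 value lies under the control percentile, "at least N-fold" uses that percentile in its place. Alternatives were other scalings (equal medians, cyclic loess and quantile in limma 3.58.1, R 4.3.3), no level filter, a stricter level, and 1.5-fold and 3-fold thresholds. Calculations used Python 3.11.15 with pandas 2.3.3 and numpy 2.4.6, and were tested on simulated data.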

Additional observations from a re-analysis of the deposited data

Results flagged for a closer look

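The KO minus WT difference passed 2-fold in opposite directions without and with IL-4 in 11 clusters, all with 1 symbol. With 1 array a group, the difference between the treatments was not tested. Lower in KO untreated and higher with IL-4 were Slc7a11, the cystine carrier (-1.46 and 1.57), Lor, loricrin (-1.53 and 1.05), Rassf6, a scaffold of the Hippo pathway (-1.85 and 1.12), and Ttc9 (-1.43 and 1.78). Higher in KO untreated and lower with IL-4 were Socs2, a cytokine signalling inhibitor (1.32 and -1.20), Cdk1 (1.21 and -1.17), Pold1, the DNA polymerase delta subunit (1.13 and -1.23), Kcnn4, a calcium-activated potassium channel (1.09 and -1.10), Tmprss11b, a membrane protease (1.07 and -1.85), S100pbp (1.12 and -1.12) and Cmah (1.16 and -1.04). Without IL-4, both values lie under 9.21 in 8 of these clusters, all but Slc7a11, Lor and Tmprss11b, and 1 of the pair does in Lor and Tmprss11b.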

How the results depend on the processing

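Each comparison rests on 1 array a side, which limits the precision. No paired analysis was possible because each group has a single replicate, so the groups share fewer than 2 replicate numbers; the differences within each treatment are given side by side. With no level filter, 254 clusters were 2-fold higher in KO in place of 154. With both untreated values at or above 9.21, 25 were higher and 127 lower. A 1.5-fold threshold gave 866 higher and 1069 lower, and a 3-fold threshold 23 and 92. Clusters past the threshold the same way in both pairs numbered 446 at 1.5-fold, 24 at 3-fold and 33 with both values above 9.21; in opposite ways, 179, 0 and 1. The 3 other scalings gave 144 to 172 higher and 337 to 371 lower, and none of the 629 named clusters checked under them changed sign; 19 of those past 2-fold fell short of it in at least 1 scaling.

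List medians moved where few members were left. With both values at or above 9.21 they were -1.51 for amino acid transporters, 0.65 for interferon response, 0.21 for p53 targets and 1.87 for smooth-muscle and pericyte markers. Over members named only by the IL-4 genotype table they were -1.26 for kallikreins, proteases and inhibitors, -1.19 for chemokines, 1.13 for matrix genes and -0.83 for actin and contractile genes. The actin median so changed sign. The cause was not tested beyond the smaller number of genes.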
